A study of Mus musculus with 8 samples.

Results

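The RNA exosome is a protein complex that degrades and trims RNA from the 3′ end. It processes ribosomal and small nucleolar RNA precursors and removes short-lived nuclear transcripts and faulty messenger RNA. Its barrel is a ring of subunits related to bacterial RNase PH, which pair as EXOSC4 with EXOSC9, EXOSC5 with EXOSC8 and EXOSC6 with EXOSC7. A cap of EXOSC1, EXOSC2 and EXOSC3 binds RNA at the entry, and the animal barrel has no cutting activity of its own, so RNA is degraded by attached nucleases, DIS3 below the ring and EXOSC10 on top. The genes Exosc1 to Exosc10 were taken by symbol through their Ensembl identifiers, and all 10 were found in both expression tables, 10 of 21517 genes listed in either. The complex was chosen by the knockdown and control levels of Exosc6, which had been lower in knockdown embryos of both stages in earlier results of these data. The values of Exosc6 are therefore given as a description with no test, and the question was whether the other 9 subunits followed.

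Pools of 20 mouse embryos with knockdown (KD) of Smarca5 (Snf2h), an ATPase that slides nucleosomes, were compared with pools of an NC group by sequencing of polyadenylated RNA. KD morulae, NC morulae, KD blastocysts and NC blastocysts had 2 libraries each, 8 in all. The series names embryonic days 3.75 and 4.25 without tying a day to a stage, and the sources used here give neither the strain, nor the knockdown reagent, nor the meaning of NC. The level of a gene is the authors' normalized abundance, scaled within the table of each stage, so levels are compared only within a stage. The step between the lowest values gave a rough estimate of the fragments assigned to genes in each library. It was between 16177238 and 18568761 for the morula libraries and between 13958294 and 23304921 for the blastocyst libraries. Smarca5 was 501 and 470 in KD morulae against 9678 and 9760 in NC morulae, with 906 and 855 for KD against 7000 and 8283 for NC in blastocysts. The 7 embryo markers Pou5f1, Nanog, Sox2, Cdx2, Gata3, Krt8 and Krt18 were present in every library, and their differences are given beside the results. Of 13 markers of cumulus, granulosa and stromal cells, 6 were listed in morulae and 8 in blastocysts, and the defining genes Fshr, Cyp19a1, Has2, Ptx3 and Tnfaip6 in neither. Their summed level was 471 and 518 in KD morulae against 364 and 511 in NC morulae, and 253 and 463 in KD blastocysts against 326 and 393 in NC blastocysts. Within these sums Foxl2 was higher in KD without overlap at both stages, at 109 and 77.1 in KD morulae against 38.9 and 28.9 in NC morulae, and 63.9 and 42.6 in KD blastocysts against 16.3 and 25.1 in NC blastocysts (adjusted p = 0.402 and 0.240 in limma). Amh and Inhba, both too low for the test, were also higher in KD morulae without overlap and overlapped in blastocysts. Amh was 6.74 and 8.72 in KD morulae against 1.85 and 1.03 in NC morulae. Amhr2 was lower in KD morulae without overlap, at 204 and 243 in KD against 279 and 325 in NC. The summed level of 3 blood markers was 8.69 and 2.22 in KD morulae against 11.0 and 2.05 in NC morulae, and 4.37 and 61.0 in KD blastocysts against 1.36 and 140.3 in NC blastocysts. The part of these markers in the results was not tested. In bulk pools, fewer cells of a type and less RNA per cell cannot be told apart.

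Exosc6 (ENSMUSG00000109941), a ring subunit, was the member with the lowest level per length in KD embryos. It was listed at 0 in both KD morula libraries, against 126 and 8.31 in the NC morula libraries, so the NC libraries differed widely from each other. In blastocysts it was 23.7 and 13.6 in KD libraries against 196 and 302 in NC libraries, or 18.7 ± 7.12 in KD and 249 ± 74.6 in NC (SD, n = 2 each). The groups did not overlap at either stage. The blastocyst difference was -3.69 on the log2(value + 1) scale, and the NC mean was 13.3 times the KD mean. For morulae no fold is given, because KD libraries were listed at 0. All 10 subunits reached the minimum mean of 10 for the fit, Exosc6 in morulae only through NC replicate 1.

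The annotation of Exosc6 bears on how its reads could be counted. In mm10 it is a single-exon protein-coding gene on the plus strand of chromosome 8, at 111056339 to 111057664. This exon lies within exon 21, the last exon, of the 5750-base transcript of Aars, which encodes alanyl-tRNA synthetase. Exon 21 runs from 111055019 to 111057664 on the same strand and ends at the same base, and Exosc6 starts 1134 bases after the Aars stop codon, inside the 3′ untranslated region. The Exosc6 transcript of 1326 bases is found whole in this Aars transcript, as bases 4425 to 5750. The first 30 bases of the Exosc6 coding sequence (chr8:111056371-111056400, plus strand, read from the GENCODE vM21 transcripts) are shown from both transcripts, with the start codon of Exosc6 in capitals, to show that the stretch is the same in each.
Exosc6 transcript, bases 33 to 62: ATGccgggagaccatcgccgcatccgcggg
Aars transcript, bases 4457 to 4486: ATGccgggagaccatcgccgcatccgcggg
All of the 1296 different 31-base words in the Exosc6 transcript also occur in another gene, and 0 are its own. The other 9 subunits had 77.9% (Exosc4) to 100% (Exosc10) of words of their own.

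**Figure D1:**
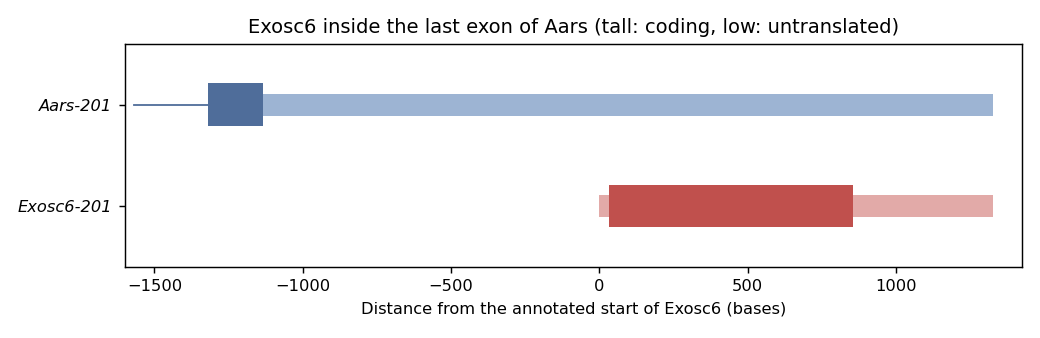
Map of the last exon of the Aars transcript and the single exon of Exosc6 by distance in bases from the annotated start of Exosc6 (tall boxes are coding, low boxes untranslated). All 1326 bases of Exosc6 lie inside the Aars exon, and both end at the same base.

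Aars itself was not called. It was 6981 and 7148 in KD morulae against 7383 and 7643 in NC morulae (log2 fold change -0.09, limma adjusted p = 0.823), and 7664 and 7274 in KD blastocysts against 7473 and 9382 in NC blastocysts (-0.17, adjusted p = 0.514). Neither stage passed the threshold of 0.05. Exosc6 made up 0% of the summed level of both genes in both KD morula libraries, against 1.68% and 0.109% in NC morulae. Its share was 0.308% and 0.187% in KD blastocysts against 2.56% and 3.12% in NC blastocysts. Whether reads were moved between the overlapping genes by the authors' quantification was not tested.

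Compared with all tested genes, and without matching for level, genes without any 31-base word of their own had larger median differences between libraries of 1 group. They were 152 of the 13265 tested morula genes with a word count (1.146%) and 141 of 13520 in blastocysts (1.04%). The median absolute log2 difference between the NC libraries was 0.437 for these genes and 0.289 for all genes in morulae, and 0.4002 and 0.216 in blastocysts. For Exosc6 it was 3.77 in morulae and 0.618 in blastocysts. Genes with a mean within 2-fold of that of Exosc6 and at least 50% of words of their own had medians of 0.613 in morulae and 0.314 in blastocysts.

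The other 9 subunits differed far less than Exosc6, and none was called at either stage. In morulae 6 had a lower and 3 a higher log2 fold change in KD, between -0.15 and 0.25, with a median of -0.07 against -0.01 over all 13404 tested genes, of which 50.8% were lower. In blastocysts all 9 were lower in KD, between -0.36 and -0.03, with a median of -0.25 against 0.0017 over all 13651 tested genes, of which 49.7% were lower. No subunit passed an adjusted p of 0.05 in limma at either stage, where 0.00746% of all tested genes passed in morulae and 0.0879% in blastocysts. At an unadjusted p under 0.05 the count was 0 of 9 in morulae, where 10.4% of all genes were under it, and 1 of 9 in blastocysts, where 17.6% were.

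**Figure D2:**
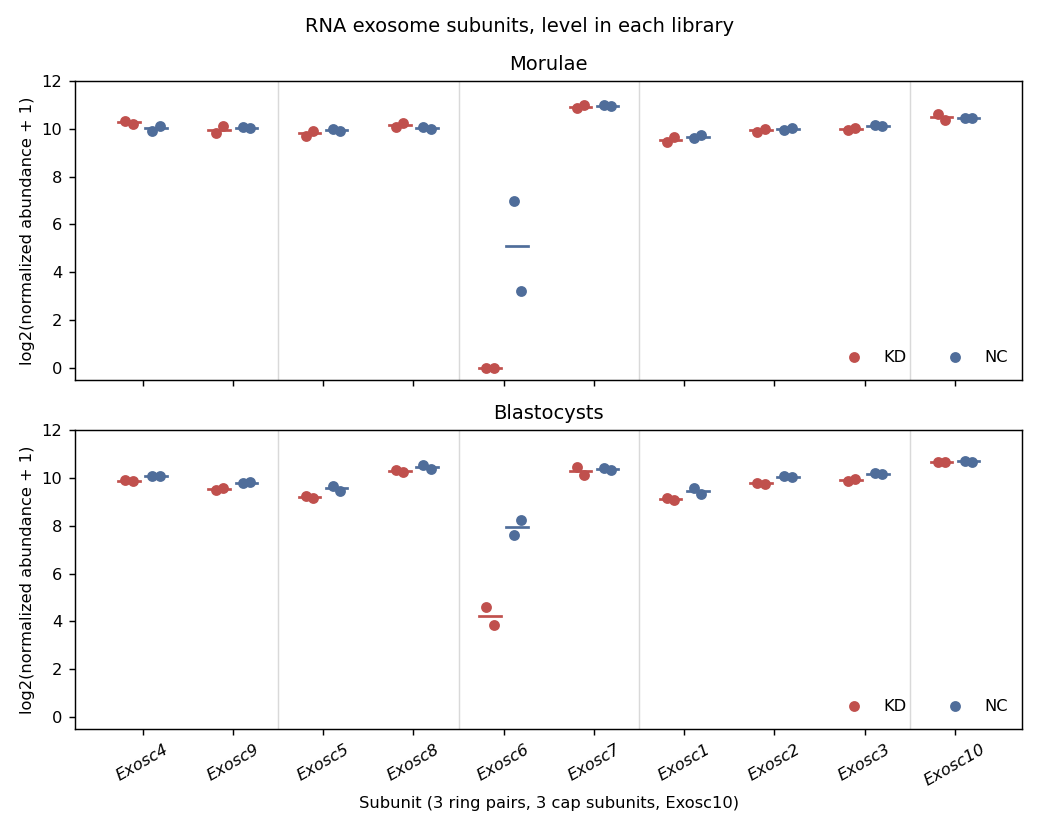
Level of each subunit in each library as log2(normalized abundance + 1), by stage, with KD points left of NC points and short lines at the mean of each pair of libraries. The values are not divided by gene length, so the heights of different genes are not compared here. Exosc6 is listed at 0 in both KD morula libraries, while KD and NC points of the other 9 lie close together.

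In blastocysts the KD values were lower than the NC values without overlap for 8 of the 9 subunits, and higher for 0. Over all tested blastocyst genes KD lay below NC for 24.9% and above for 24.6%. Over the 2965 genes with a mean in the range of these subunits it lay below for 27.9% and above for 22.1%. In morulae KD lay below NC for 1 subunit and above for 2, where 21.2% of all genes lay below and 20.7% above. Over the 2498 morula genes in the range of the subunits, 24.0% lay below and 18.1% above. The morula count below NC was 2 without KD replicate 1, 6 without KD replicate 2, 3 without NC replicate 1 and 2 without NC replicate 2, and the count above NC was 4 without KD replicate 1; fewer libraries overlap less often by construction. The 9 genes share the same 4 libraries of a stage, so their differences are not independent of each other. Their summed level was 9068 and 8587 in KD blastocysts against 10353 and 9813 in NC blastocysts. In morulae it was 10145 and 10703 in KD against 10465 and 10546 in NC. The KD sums were thus below both NC sums in blastocysts and overlapped them in morulae. Embryo markers also differed in blastocysts, where 5 of 7 had an unadjusted p under 0.05 in limma (17.6% of all tested genes). Of the 7, 0 were called (0.0879% of all tested genes). The trophectoderm markers were higher in KD without overlap, with log2 fold changes of 0.20 for Cdx2, 0.33 for Gata3, 0.25 for Krt8 and 0.29 for Krt18. Sox2 (-0.49) and Pou5f1 (-0.12), markers of the inner cell mass, were lower without overlap, and Nanog (-0.0063) overlapped. In morulae Krt8 (-0.36) and Krt18 (-0.43) were lower in KD without overlap and the other 5 overlapped. The summed level of the 7 markers was 120887 and 133450 in KD blastocysts against 112140 and 113302 in NC blastocysts. In morulae it was 59612 and 52962 in KD against 61502 and 56533 in NC. The part of these markers in the subunit differences was not tested.

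Among the ring subunits, Exosc7, the direct partner of Exosc6, was 1412 and 1111 in KD blastocysts against 1387 and 1305 in NC blastocysts. The groups overlapped, and the log2 fold change was -0.10 (95% interval -0.45 to 0.24, adjusted p = 0.754). Without KD replicate 2 it was 0.0694, so the lower level of all 9 subunits in blastocysts rests on that library for Exosc7. In morulae it was 1852 and 2047 in KD against 2015 and 1965 in NC, again with overlap (-0.03, interval -0.35 to 0.29, adjusted p = 0.961). The direction of this small morula difference turned under quantile normalization, to 0.0111.

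Exosc5 had the lowest p of the 9 in blastocysts. This ring subunit was 610 and 570 in KD against 815 and 706 in NC, so both KD libraries lay lower. The difference of the means was -22.5% of the NC mean (log2 fold change -0.36, interval -0.72 to -0.01, adjusted p = 0.275). In morulae Exosc5 was 832 and 974.6 in KD against 1017 and 974 in NC, with overlap (-0.14, adjusted p = 0.808). Its partner Exosc8 was 1292 and 1226 in KD blastocysts against 1492 and 1340 in NC blastocysts (-0.17, interval -0.45 to 0.11, adjusted p = 0.499). In morulae both KD libraries of Exosc8 lay above NC instead, at 1074 and 1196 in KD against 1065 and 1018 in NC (0.12, adjusted p = 0.830).

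Exosc4 pointed in different directions at the 2 stages. It was 1286 and 1189 in KD morulae against 964 and 1121 in NC morulae, all KD values above NC (log2 fold change 0.25, interval -0.13 to 0.63, adjusted p = 0.635). In blastocysts it was 971 and 933 in KD against 1083 and 1080 in NC, all KD values below NC (-0.18, interval -0.47 to 0.10, adjusted p = 0.459). The change in blastocysts minus that in morulae was -0.43 (interval -0.85 to -0.02), which did not pass over all genes (limma adjusted p = 0.911; unadjusted p = 0.0422). Its partner Exosc9 was 718 and 766 in KD blastocysts against 881 and 902 in NC blastocysts, without overlap (-0.27, interval -0.57 to 0.04, adjusted p = 0.343). In morulae Exosc9 was 904 and 1104 in KD against 1087 and 1038 in NC, with overlap (-0.09, adjusted p = 0.897).

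The 3 cap subunits, which bind RNA at the mouth of the barrel, were lower in every KD blastocyst library. Exosc1 was 580 and 533 in KD against 774 and 636 in NC (log2 fold change -0.33, interval -0.72 to 0.05, adjusted p = 0.341). Exosc2 was 898 and 855 in KD against 1072 and 1065 in NC (-0.29, interval -0.57 to 0.0007, adjusted p = 0.285). Exosc3, whose human counterpart is mutated in a form of pontocerebellar hypoplasia, was 951 and 983 in KD against 1169 and 1135 in NC (-0.25, interval -0.53 to 0.03, adjusted p = 0.323). None of the 3 passed. In morulae only Exosc3 had KD libraries below NC, at 976 and 1039 in KD against 1133 and 1100.5 in NC (-0.15, adjusted p = 0.773). Exosc1 was 697 and 808 in KD morulae against 782 and 858 in NC morulae (-0.13, adjusted p = 0.849). Exosc2 was 937 and 1028 in KD morulae against 998 and 1060 in NC morulae (-0.07, adjusted p = 0.915), and both overlapped.

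Exosc10, the nuclear 3′ to 5′ exonuclease on top of the complex, differed least in blastocysts. It was 1634 and 1610 in KD against 1678 and 1644 in NC (log2 fold change -0.03, interval -0.28 to 0.21, adjusted p = 0.896). The KD values lay below NC, and the difference of the means was -2.35% of the NC mean. In morulae it was 1588 and 1317 in KD against 1405 and 1412 in NC, with overlap (0.04, interval -0.33 to 0.41, adjusted p = 0.958).

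The test of the difference between stages called 0 of the 9 subunits and 0 of 12875 genes (0%) in limma. At an unadjusted p under 0.05 it took Exosc4 alone among the 9. The share of all genes under that threshold was not computed, so Exosc4 is not singled out by it. The change in blastocysts was lower than that in morulae for each of them, by -0.07 to -0.43 on the log2 scale. Every interval except that of Exosc4 included 0. The share of all genes with a lower change was not computed either, and the 9 genes share the same libraries. Their common direction is thus a description only.

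**Figure D3:**
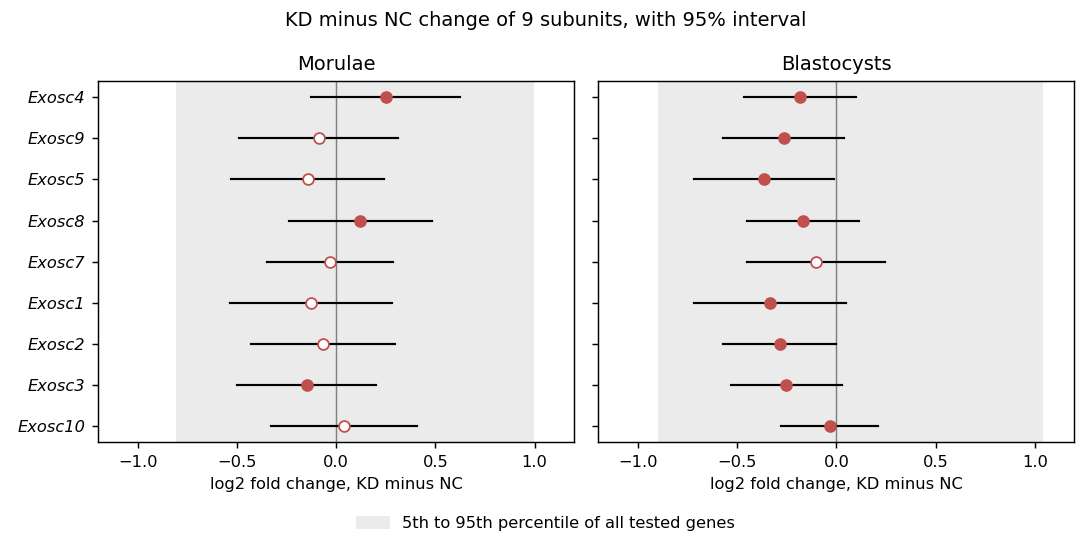
Log2 fold change (KD minus NC) of the 9 subunits other than Exosc6 with its 95% interval from limma, by stage; filled points have KD and NC libraries that do not overlap, open points overlap, and the grey band spans the 5th to 95th percentile of all tested genes. The blastocyst points all lie left of 0, from -0.36 to -0.03, and all points lie inside the band. The band is not matched to the level of the subunits.

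Levels per length put the subunits in nearly the same order in each group. The abundance was divided by the merged exon length in kilobases from GENCODE vM21. Exosc3 was highest at 731 ± 17.0 per kilobase in KD and 870 ± 18.3 in NC blastocysts, and 761 ± 33.9 in KD and 844 ± 17.5 in NC morulae (SD, n = 2 each). Exosc4 and Exosc10 came next, at 489 ± 13.8 and 451 ± 4.69 in KD blastocysts against 556 ± 1.33 and 462 ± 6.70 in NC blastocysts. Exosc5 was lowest of the 9, at 94.1 ± 4.56 in KD blastocysts against 121 ± 12.3 in NC blastocysts. Exosc6 ranked last of the 10 in KD and NC morulae and in KD blastocysts. In NC blastocysts it was eighth, at 188 ± 56.2 per kilobase, within its spread of Exosc9 (189 ± 3.25) and Exosc1 (174 ± 24.1). Annotated exons need not all be used in embryos, so this order depends on the annotation.

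Nucleases and cofactors of the complex were read from the same fits. The catalytic subunit gene Dis3 was 786 and 900.5 in KD blastocysts against 891 and 1199 in NC blastocysts (log2 fold change -0.30, limma adjusted p = 0.432). Dis3l, its cytoplasmic relative, was 155 and 132 in KD against 196 and 198 in NC blastocysts, without overlap (-0.46, adjusted p = 0.375). In morulae Dis3 had a log2 fold change of -0.15 and Dis3l of 0.15, with adjusted p of 0.811 and 0.921, and neither gene had an unadjusted p under 0.05 at either stage. Of 17 nuclear cofactors 0 were called in either direction at either stage, with medians of -0.03 in morulae and 0.02 in blastocysts, and 0 in morulae and 3 in blastocysts had an unadjusted p under 0.05, where 10.4% and 17.6% of all tested genes did. Mtrex, the helicase that feeds RNA into the nuclear exosome, was 2134 and 2493 in KD blastocysts against 2985 and 2727 in NC blastocysts (-0.31, adjusted p = 0.246). It was 2152 and 2041 in KD morulae against 2674 and 2206 in NC morulae, below in both (-0.21, adjusted p = 0.667). Tent4a, a non-canonical poly(A) polymerase, had the opposite sign, at 757 and 749 in KD blastocysts against 528 and 534 in NC blastocysts (0.50, adjusted p = 0.151). Pabpn1, a nuclear poly(A)-binding protein that links adenylated RNA to the exosome, was 4663 and 4274 in KD morulae against 3497 and 3850 in NC morulae (0.28, adjusted p = 0.501).

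The 4 genes of the SKI list serve the cytoplasmic exosome, and 0 were called in limma, with 1 in morulae and 0 in blastocysts at an unadjusted p under 0.05 (10.4% and 17.6% of all genes). Hbs1l, whose short isoform in humans bridges SKI and exosome, was 827 and 624 in KD morulae against 1187 and 1107 in NC morulae, without overlap (log2 fold change -0.67, adjusted p = 0.386). In blastocysts it was 1126 and 1250 in KD against 1484 and 1342 in NC (-0.25, adjusted p = 0.349). Wdr61 had log2 fold changes of 0.09 in morulae (adjusted p = 0.888) and -0.14 in blastocysts (adjusted p = 0.561). The list's medians were -0.02 in morulae and -0.09 in blastocysts.

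Decay enzymes outside the exosome were a wider group. Of 24 such genes 23 were tested in morulae and 24 in blastocysts, and 0 were called at either stage in limma, with 2 in morulae and 5 in blastocysts at an unadjusted p under 0.05 (10.4% and 17.6% of all genes). In blastocysts 16 were lower and 8 higher with a median of -0.11, and KD lay below NC without overlap for 11 and above for 6 (24.9% and 24.6% of all genes). In morulae 16 were lower and 7 higher with a median of -0.04, and KD lay below NC for 5 and above for 4 (21.2% and 20.7% of all genes). Edc4, a scaffold of the decapping complex, was 1832 and 1829 in KD blastocysts against 2522 and 2383 in NC blastocysts (-0.42, adjusted p = 0.124). The decapping enzyme Dcp2 was 878 and 633 in KD blastocysts against 1134 and 1160 in NC blastocysts (-0.62, adjusted p = 0.162). In morulae Dcp2 was higher in KD without overlap, at 604 and 766 in KD against 387 and 555 in NC (0.55, adjusted p = 0.505). In morulae the exonuclease Eri1 was 731 and 812 in KD against 1396 and 1033 in NC (-0.64, adjusted p = 0.402), and the uridylyltransferase Tut4 was 590 and 502 in KD against 743 and 910 in NC (-0.59, adjusted p = 0.415). Of 19 spliced hosts of small nucleolar RNAs, 16 could be matched to an identifier, and 1 of these (Snhg11) was listed at each stage. The hosts that were not listed have no value here, so their level is unknown. Snhg11 was 1206 and 709 in KD blastocysts against 1305 and 599 in NC blastocysts. It was 1540 and 964 in KD morulae against 1847 and 803 in NC morulae, with overlap at both stages.

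**Figure D4:**
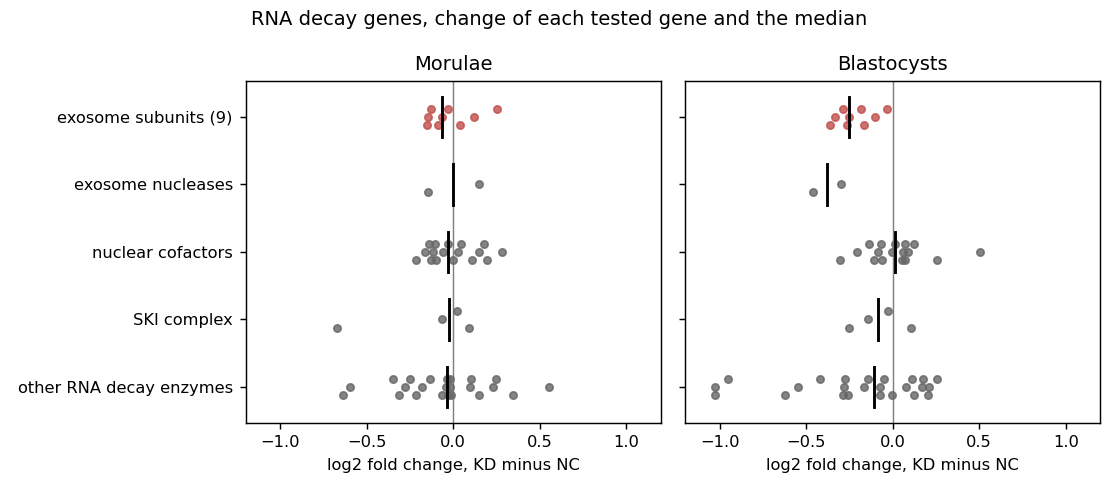
Log2 fold change (KD minus NC) of each tested gene in the 9 exosome subunits other than Exosc6 and in 4 lists of RNA decay genes, by stage, with a black bar at the median. Values of every list lie on both sides of 0 in morulae, and in blastocysts the subunits and nucleases lie left of 0, with medians of -0.25 and -0.38.

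The genes next to Exosc6 on chromosome 8 did not share one direction. The 4 nearest protein-coding starts on each side belong to St3gal2, Ddx19a, Ddx19b, Aars, Clec18a, Pdpr, Glg1 and Rfwd3. In morulae KD lay below NC without overlap for Ddx19a, Aars, Pdpr, Glg1 and Rfwd3 and above for Ddx19b (21.2% and 20.7% of all genes). In blastocysts it lay below for Ddx19a, Glg1 and Rfwd3 and above for Ddx19b and St3gal2 (24.9% and 24.6%). Ddx19a, an RNA helicase of mRNA export, was 554 and 406 in KD morulae against 1156 and 1009 in NC morulae (log2 fold change -1.18, limma adjusted p = 0.343). It was 787 and 725 in KD blastocysts against 1516 and 1711 in NC blastocysts (-1.09, adjusted p = 0.0561). Its neighbouring paralog Ddx19b was higher, at 2145 and 2339 in KD morulae against 1792 and 1829 in NC morulae (0.31, adjusted p = 0.488), and 2226 and 2329 in KD blastocysts against 1413 and 1430 in NC blastocysts (0.68, adjusted p = 0.0742). These genes are paralogs, and their values are given as uncertain. Ddx19a had 68.0% and Ddx19b 85.6% of 31-base words shared with no other gene, against 66.7% for Smarca5, and whether reads were split between the copies was not tested. Pdpr, a subunit of pyruvate dehydrogenase phosphatase, was lower in KD morulae without passing (-0.55, adjusted p = 0.464) and overlapped in blastocysts (-0.08, adjusted p = 0.902). The Golgi protein gene Glg1 (-0.20 in morulae, -0.22 in blastocysts) and the ubiquitin ligase gene Rfwd3 (-0.21 and -0.17) were lower without overlap at both stages and did not pass, with adjusted p of 0.683 and 0.342 for Glg1 and 0.603 and 0.397 for Rfwd3. St3gal2, a sialyltransferase gene, differed by 0.0023 in morulae and 0.29 in blastocysts (adjusted p = 0.999 and 0.726). Clec18a had a mean of 0.496 in KD and 0.901 in NC morulae, too low for the test, and was not listed for blastocysts.

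The 5 genes whose profile over the 8 libraries was closest to that of Exosc6 were found by the Euclidean distance of log2(value + 1) levels, centred within each table. They are a description with no test, over the 12874 other genes tested at both stages. Exosc6 was chosen for low KD values, so genes low in KD at both stages had to come out closest. In order of distance they were Smarca5 (distance 2.90, Pearson's r = 0.918), Gm13502 (3.06, r = 0.908), Fthl17c (3.33, r = 0.911), Fthl17b (3.35, r = 0.875) and Lama3 (3.72, r = 0.933). An r of at least 0.9 was reached by 222 of the 12874 genes. Gm13502, a processed pseudogene with 0% of words of its own, was listed at 0 in all KD libraries, against 77.2 and 0 in NC morulae and 33.6 and 19.7 in NC blastocysts. Fthl17c and Fthl17b, ferritin heavy-chain-like genes on the X chromosome, had 13.2% and 3.82% of words of their own. Gm13502, Fthl17c and Fthl17b had KD means below 10 at both stages, so they passed the filter only through NC libraries. Fthl17c was 4.83 and 6.61 in KD morulae against 94.0 and 89.5 in NC morulae. Lama3, a laminin chain gene with 98.4% of words of its own, was 57.7 and 110.5 in KD blastocysts against 396 and 417.5 in NC blastocysts.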

How the data were processed

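The authors deposited 1 table of normalized signal per gene for each stage, with 1 column per library. The submitters' processing notes name Salmon 0.14.1, DESeq2 and mm10 without their roles. Poly(A) selection used oligo(dT) beads, with 12 to 15 cycles of PCR, per the labels' protocols. For genes above 0 in just 1 library, values were whole multiples of 1 step in 95% to 100% of cases (tolerance 0.01). The column sum divided by this step gave the estimate of assigned fragments. Of other low values only 11.4% to 30.4% were whole. The values could therefore not be turned back into reads, and count tests were not used.

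Groups came from sample titles. Genes with a mean of at least 10 over a table entered limma 3.58.1 (R 4.3.3, eBayes with trend) on the log2(value + 1) scale, KD minus NC, with Benjamini-Hochberg adjustment over all genes and a threshold of 0.05. All 10 subunits passed this filter, Exosc6 in morulae only through NC replicate 1 (126, against 8.31 in NC replicate 2). Fold changes on this scale understate changes of low genes. The stage difference was fitted over all 8 libraries. The fitting step was tested on simulated data. With 2 libraries against 2, a permutation test cannot reach 0.05. The labels do not say whether a group's libraries had separate litters, so the p-values cover the spread among libraries only, which may be technical.

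Coordinates, lengths and 31-base words (either strand) came from GENCODE vM21, which may not be the annotation the authors used. Members and lists were chosen with earlier results of these data known. All 10 members were named. From each list the called genes or, with none, the pair with the lowest p per stage were named, with all neighbours and the 5 most similar profiles.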

Additional observations from a re-analysis of the deposited data

How the results depend on the processing

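Alternatives were a pseudocount of 10, no filter, quantile normalization, no mean-variance trend, a replicate block and leaving out each library. Under all of these, 0 of the 9 subunits were called at either stage or for the stage difference. Of 175 values of single subunits, 170 kept their direction and 5 reversed, none of them past the threshold. Those were Exosc7 in morulae under quantile normalization (0.0111) and, with 1 library left out, Exosc7 (-0.1035 to 0.0413), Exosc9 (-0.2328 to 0.0559) and Exosc10 (-0.0968 to 0.1734) in morulae without KD replicate 1, and Exosc7 in blastocysts (-0.2764 to 0.0694) without KD replicate 2. The count of subunits with KD below NC in blastocysts was 8 under quantile normalization. With a library left out it was 8 to 9, but by construction such a count can only stay or rise. In morulae it was 2 to 6, against 1 with all libraries, and the count above NC was 2 to 4. These counts, and the sum below, were chosen after seeing the data.

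The Exosc6 difference in blastocysts was -3.17 with a pseudocount of 10 and -3.31 to -4.06 with a library left out. With Exosc6 and Aars summed as 1 feature it was -0.20, close to the -0.17 of Aars by construction, since Exosc6 was at most 3.12% of the sum, so this value does not bear on the Exosc6 difference. Over all genes, the morula calls were 1, 0 without the trend and 892 with the replicate block. The blastocyst calls were 12, 27 without the filter, 0 without the trend, 1208 with the block and 1 to 3 with a library left out. With the block the adjusted p of the subunits stayed above 0.05 (Exosc5 in blastocysts -0.36, adjusted p = 0.116). Deviations of libraries with the same number correlated at 0.297 in morulae and 0.146 in blastocysts, but the labels do not say that the number pairs them. Exosc6 is limited by KD levels at or near 0 and by having 0 words of its own.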
